A study of Homo sapiens with 6 samples.

Results

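Histone genes, linker histones included, were measured by 115 of the 54613 probe sets tested on the array. Members were taken by gene symbol from the platform's probe table, and no measured value entered that choice, but the family was singled out when the lower value of the linker histone gene H1-10 in treated cells was already known. The values of H1-10 are therefore a description, and its p-values carry no independent weight. The 115 probe sets list 84 histone symbols. Of them, 86 list 1 symbol and together name 61 genes, and 29 list several, most often near-identical copies of 1 class that hybridisation cannot separate; these are described by class and not named as a gene. By kind, 69 probe sets belong to replication-dependent genes, 40 to variant genes, and 6 to an antisense RNA and to pseudogenes that carry a histone symbol and are kept apart.

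The cells were MOLM-14, a human AML (acute myeloid leukaemia) line in established culture that carries the MLL-AF9 rearrangement. One group received 25 nM cortistatin A (CA) for 3 h, an inhibitor of the kinases CDK8 and CDK19 of the Mediator complex, and the other dimethyl sulfoxide (DMSO), the solvent, for 3 h. Each group had 3 samples, each on 1 Affymetrix U133 Plus 2.0 array, and values are log2 expression per probe set. No gene was altered, 1 dose and 1 time were tested, and the labels name wells plated in triplicate but no separate cultures, so the spread behind each p-value is that between samples and could be technical.

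Array medians lay between 5.03 and 5.08, and precision is set by having 3 arrays a group. The array of CA replicate 3 stood apart on the first principal component, at 33.8 with the other arrays between -12.8 and 6.44. Of 8 measured myeloid markers 7 lay above the array median on every array, and the 8 spanned 4.98 to 12.47 in CA and 4.97 to 12.48 in DMSO. CA and DMSO arrays lay apart for 2 of the 8, CEBPA with a log2 change of 0.48 and SPI1 with -0.12, and their part in any result was not tested. Of 13 measured markers of T, B, erythroid, epithelial and fibroblast cells 7 also lay above the array median on every array. None of the 13 was above 7.20 in CA or 7.16 in DMSO. Among the 13, CA and DMSO arrays lay apart for HBB, with a log2 change of 0.25, and for MS4A1, with -0.26. Their part in any result was not tested either.

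Histones package DNA. An octamer of H2A, H2B, H3 and H4 forms the nucleosome core, and linker histones of the H1 class bind where DNA enters and leaves it. Replication-dependent histone genes lie in clusters, are transcribed in S phase, and give mRNAs that end in a stem-loop in place of a poly(A) tail; the stem-loop is bound by SLBP. Variant (replacement) histones such as H1-10, H2AX, H2AZ1, H2AZ2, H3-3A, H3-3B and the macroH2As are made outside S phase as well, from genes that mostly give polyadenylated mRNA. The labelling kit primes at the 3' end, which for a tailless mRNA is inefficient as a rule; how far these probe sets report the stem-loop form was not tested.

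Promoters are shown for 3 genes, as examples of linker and variant histone genes. H1-10, both a linker and a variant gene, is the member with the largest difference. H1-2 is a replication-dependent linker histone gene, and H2AX is a variant gene with 2 probe sets lower and 2 higher in CA. Each window runs from 250 bases before to 50 bases after the annotated start (RefSeq, GRCh38.p14), 5′ to 3′ on the gene's own strand, which is minus for all 3. Capitals mark matches on either strand to the CCAAT box, to the TATA box as TATAAA, to the octamer of H2B promoters as ATTTGCAT, and to part of an H1 promoter element as AAACACAA. The windows are chr3:129316237-129316536 for H1-10, chr6:26056421-26056720 for H1-2 and chr11:119095416-119095715 for H2AX.
H1-10: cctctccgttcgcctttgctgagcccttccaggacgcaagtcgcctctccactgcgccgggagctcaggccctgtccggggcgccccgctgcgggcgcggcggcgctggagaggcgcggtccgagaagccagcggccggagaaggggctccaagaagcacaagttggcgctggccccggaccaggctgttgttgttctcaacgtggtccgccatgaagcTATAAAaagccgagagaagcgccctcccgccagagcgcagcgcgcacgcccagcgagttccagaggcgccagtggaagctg
H1-2: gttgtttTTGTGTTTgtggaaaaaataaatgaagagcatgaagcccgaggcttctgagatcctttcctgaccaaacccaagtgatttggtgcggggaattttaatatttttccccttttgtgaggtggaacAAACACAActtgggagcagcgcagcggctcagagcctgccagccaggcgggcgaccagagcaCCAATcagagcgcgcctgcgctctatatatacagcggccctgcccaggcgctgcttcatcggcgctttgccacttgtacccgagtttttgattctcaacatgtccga
H2AX: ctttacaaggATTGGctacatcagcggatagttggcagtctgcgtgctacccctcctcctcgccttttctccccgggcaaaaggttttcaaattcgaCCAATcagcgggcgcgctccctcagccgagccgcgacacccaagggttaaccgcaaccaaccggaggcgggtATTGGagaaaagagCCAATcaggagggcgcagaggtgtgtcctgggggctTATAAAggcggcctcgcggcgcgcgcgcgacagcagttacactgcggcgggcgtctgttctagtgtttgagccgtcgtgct
The H1-10 window holds 1 TATA box and 0 CCAAT boxes. The H1-2 window holds 1 CCAAT box and 2 copies of the H1 element, and the H2AX window 4 CCAAT boxes and 1 TATA box.

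Of the 84 histone symbols, 73 matched a gene with a window, 82 windows in all. CCAAT stood in 50 of 60 windows of replication-dependent genes (83.3%), 17 of 22 of variant genes (77.3%) and 34.6% of all 35116 windows. It was in every window of replication-dependent H1, H2A, H2B and H3 genes but in 3 of 13 of the H4 genes (23.1%). TATAAA stood in 65% of the replication-dependent windows, 27.3% of the variant ones and 11.5% of all. The octamer was found in 14 of 18 H2B and 8 of 13 H2A windows, in 1 of 22 windows of variant genes and in 1.77% of all windows. AAACACAA stood in 4 of 6 windows of replication-dependent H1 genes, in 3 of 22 of variant genes (13.6%) and in 1.55% of all windows. All 6 of these H1 windows hold CCAAT, which the H1-10 window lacks; a match or its absence says only which letters are there. Of the replication-dependent genes with a window 49 lie on chromosome 6, 6 on chromosome 1 and 1 on chromosome 12, whereas 5 of the 17 variant genes lie on chromosome X and no other chromosome holds more than 2 of them.

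In CA none of the 115 histone probe sets passed the test over all probe sets (limma with Benjamini-Hochberg adjustment, adjusted p under 0.05), in a comparison where 0.22% of all probe sets did, 0.00732% lower and 0.212% higher in CA. With 1 probe set per gene, H1-10 was the only one of 61 histone genes past the threshold, lower in CA, against 0.895% of 19775 genes in either direction, 0.0556% lower and 0.839% higher. Among alternatives of the fit by probe set, H1-10 passed, alone among the members, with an intensity trend and robust fit (adjusted p = 0.00247), with array weights (0.0449) and with dim probe sets left out (0.0190). It did not pass with the replicate block (0.142), after centring (0.0994) or with any 1 array left out (0.128 to 0.345). The median log2 change, CA minus DMSO, was -0.014 over the 115 members and -0.0011 over all probe sets. For 106 members the 95% confidence interval lay within 0.5 either side of 0 on the log2 scale. That share was not counted over all probe sets. The median half-width of the interval was 0.190 over the members and 0.197 over all probe sets. In RNA of a whole culture, fewer cells of a kind and less RNA per cell cannot be told apart.

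At an unadjusted limma p under 0.05 there were 12 histone probe sets, 11 lower and 1 higher in CA. That is 9.57% of members lower, where 3.71% of all probe sets were lower, and 0.87% of members higher, where 4.91% of all were higher; in either direction it is 10.4% against 8.62%. With 1 probe set per gene it was 6 of 61 genes, 5 lower and 1 higher, where 11.6% of all genes were past that limit, 4.5% lower and 7.09% higher. The 12 probe sets are not 12 genes: 4 list several histone genes, 2 are probe sets of H2AX, and 6 had a mean below that of the median probe set. The 3 CA values lay apart from the 3 DMSO values at 21 members (18.3%), 17 lower and 4 higher, against 15.5% of all probe sets, 6.55% lower and 8.96% higher.

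**Figure D1:**
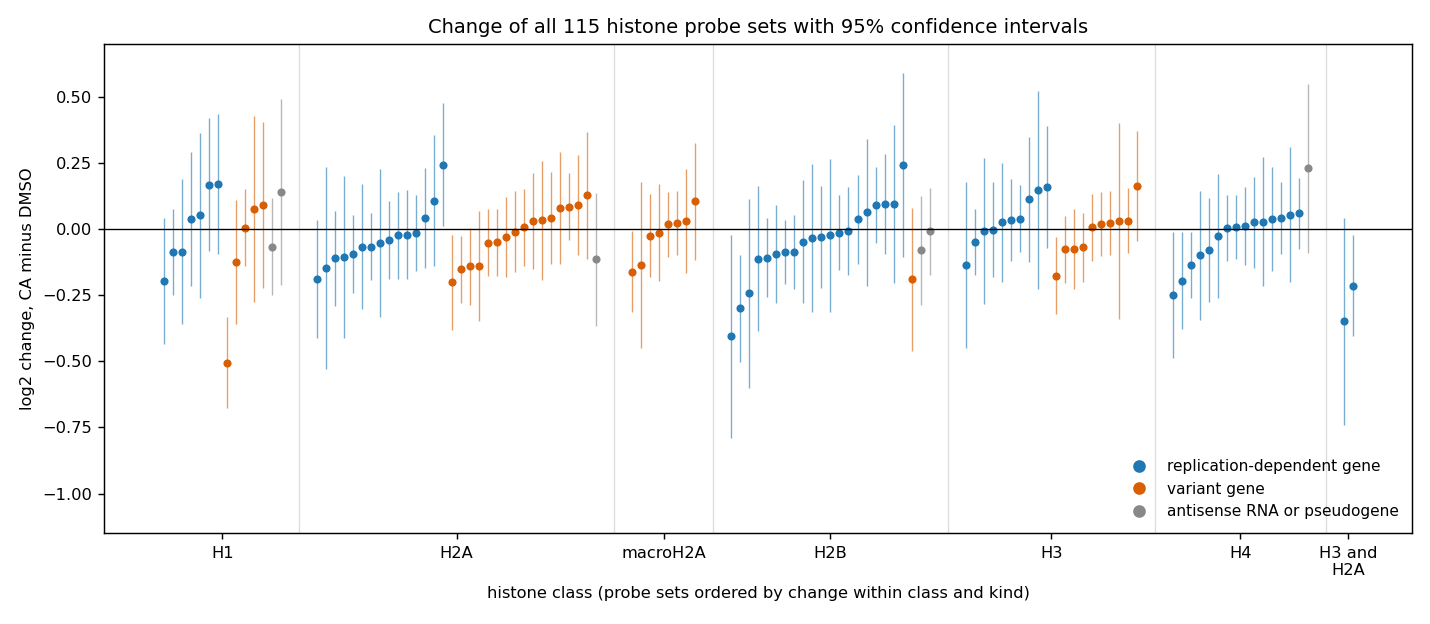
Log2 change (CA minus DMSO, vertical axis) of each of the 115 histone probe sets (points) with its 95% confidence interval (lines), grouped by histone class and coloured by kind of gene. The H1-10 point at -0.50 stands below the other linker histone points, while most members lie within 0.2 of 0.

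Replication-dependent and variant members were centred near 0. The median log2 change was -0.023 over 69 replication-dependent probe sets, of which 41 were lower and 28 higher, and 0.0061 over 40 variant ones, of which 19 were lower and 21 higher; without CA replicate 3 these medians were -0.0020 and -0.035. The middle of each distribution was narrow, with quartiles of -0.094 and 0.040 for replication-dependent and -0.088 and 0.032 for variant members, beside -0.076 and 0.070 over all probe sets. Whether the kinds differ was not tested.

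**Figure D2:**
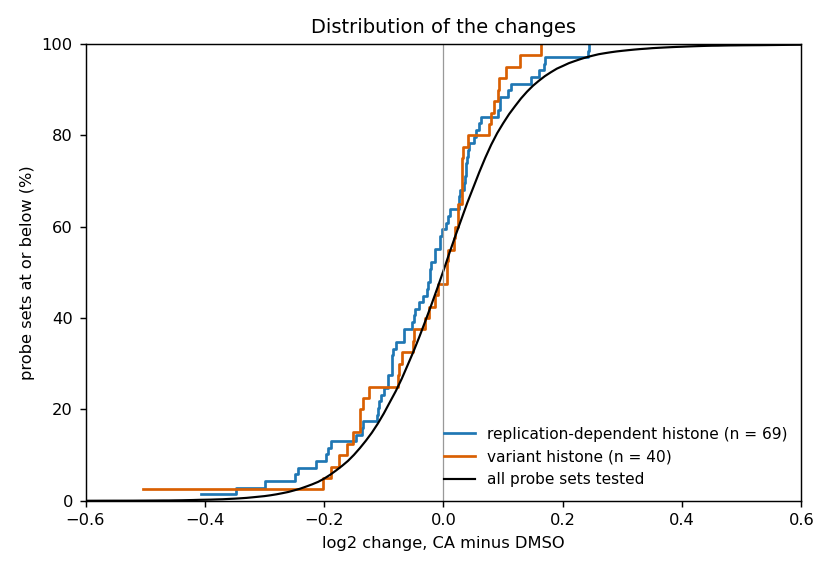
Cumulative share of probe sets (vertical axis, percent) at or below each log2 change (horizontal axis, CA minus DMSO) for replication-dependent histone, variant histone and all tested probe sets. The 3 curves cross the middle near 0, with medians of -0.023, 0.0061 and -0.0011.

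Linker histones were measured by 12 probe sets of 9 genes. H1-10, a divergent variant linker histone whose gene lies outside the histone clusters, on chromosome 3, gave log2 values of 7.23, 7.25 and 7.07 in CA, against 7.69, 7.76 and 7.62 in DMSO. All 3 CA arrays lay below all 3 DMSO arrays, by more than the spread within either group. Its means were 7.18 ± 0.095 in CA and 7.69 ± 0.073 in DMSO (SD, n = 3 each), a log2 change of -0.50 (95% confidence interval -0.68 to -0.33) and a percent change of -29.5%. In limma its adjusted p was 0.0705 over all probe sets and 0.0307 with 1 probe set per gene; the difference ranged from -0.54 to -0.45 when each array was left out in turn. H1-10 has 1 probe set with its symbol, so no second one was at hand to set beside it.

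The gene on the other side of the H1-10 start, H1-10-AS1, is named as an antisense RNA, and its annotated span shares 16 bases with that of H1-10 (RefSeq, GRCh38.p14). It lies outside the rule for named genes and was picked as the neighbour after its values were seen. It gave 4.17, 4.32 and 4.62 in CA, against 4.35, 4.37 and 3.97 in DMSO. Its groups overlapped, and its log2 change was 0.14 (95% confidence interval -0.21 to 0.49).

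None of the other linker histone probe sets had a change near that of H1-10. These 11 probe sets were centred on a log2 change of 0.038 (median) and ran from -0.20 to 0.17, and in none were the groups apart. H1-2, one of the main replication-dependent linker histones of cycling cells, gave 7.06, 6.97 and 7.16 in CA, against 7.12, 7.21 and 7.46 in DMSO. DMSO replicate 3 was the highest array and the groups overlapped, with a log2 change of -0.20 (95% confidence interval -0.43 to 0.042) and an unadjusted p of 0.0921; without that array the change was -0.097. H1-4, another such gene, had a log2 change of 0.17 (95% confidence interval -0.085 to 0.42), and 0.076 without CA replicate 1. For H1-3 it was -0.085 (95% confidence interval -0.36 to 0.19) and for H1-5 0.052 (95% confidence interval -0.26 to 0.36), both of them somatic replication-dependent linker histones. H1-1, of the same cluster, was at 0.038 (95% confidence interval -0.21 to 0.29).

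Germ cell linker histones complete the class. H1-6, a testis linker histone, had log2 changes of -0.085 and 0.17 at its 2 probe sets. H1-7, a spermatid linker histone, had -0.12, 0.093 and 0.076 at 3, and H1-8, the oocyte linker histone, 0.0055 (95% confidence interval -0.14 to 0.15). At 2 of the H1-7 probe sets CA replicate 3 alone gave the positive sign: without it the changes were -0.046 and -0.11.

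**Figure D3:**
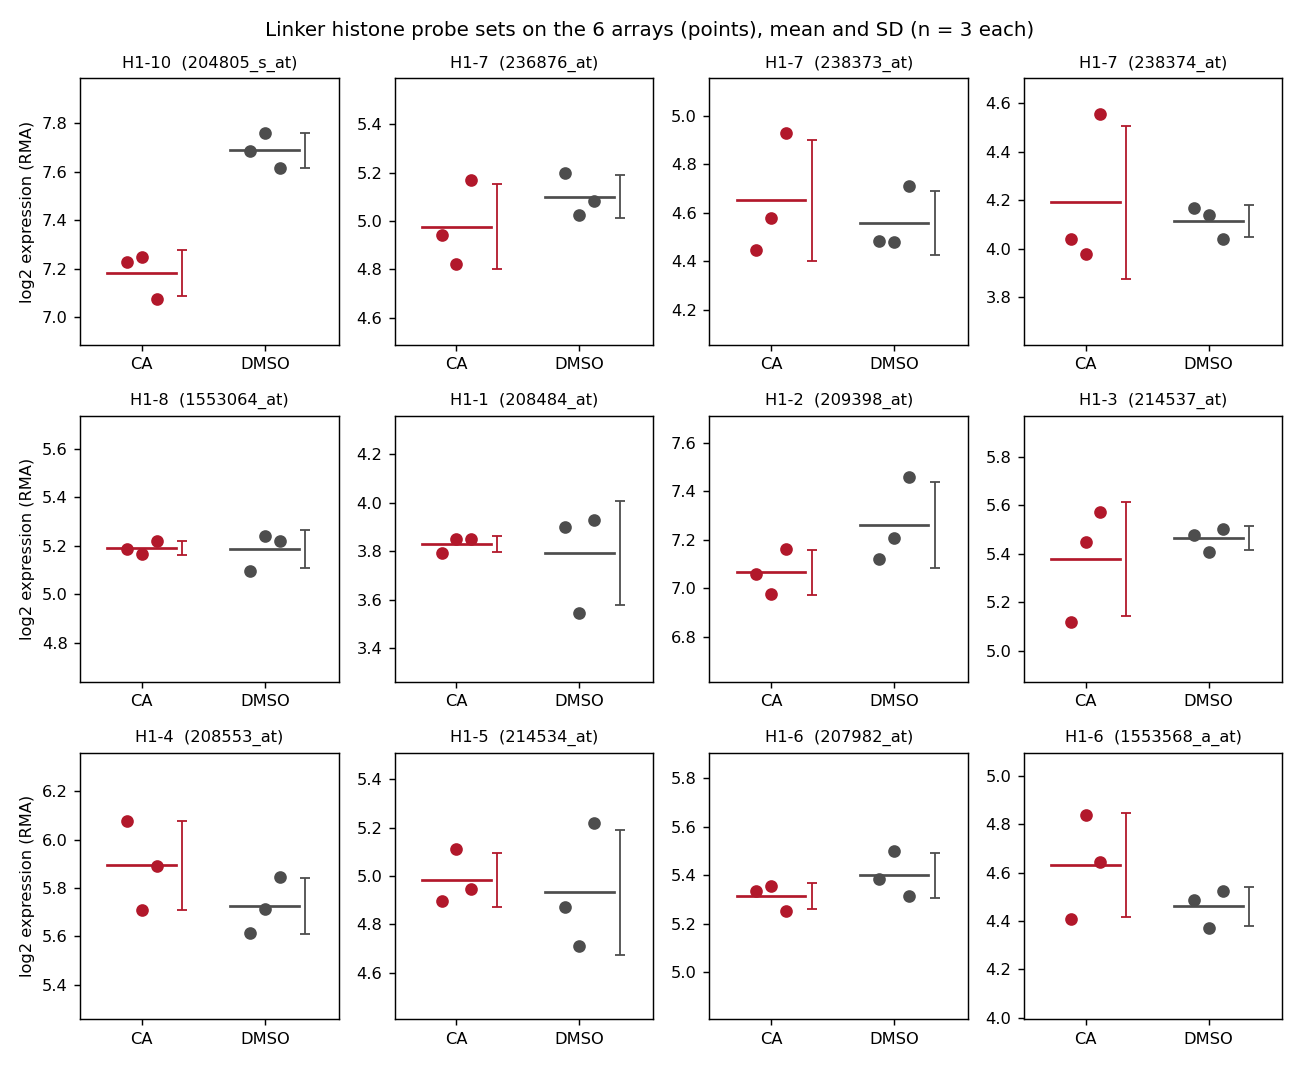
Log2 expression (vertical axis, the same span in each panel) of the 12 linker histone probe sets on the 3 CA and 3 DMSO arrays (points), with group means (horizontal lines) and SDs (bars). The CA points of H1-10, at 7.07 to 7.25, lie below its DMSO points, at 7.62 to 7.76; in the other 11 panels the groups overlap.

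Among H2A variants, H2AX was the gene with 2 probe sets at an unadjusted p under 0.05, neither of them past the adjusted threshold. The protein becomes phosphorylated around DNA breaks, and the gene gives both a stem-loop and a polyadenylated mRNA. Its brightest probe set gave 9.84, 9.86 and 9.91 in CA, against 10.00, 10.05 and 10.02 in DMSO. The CA arrays lay just below the DMSO arrays, with a log2 change of -0.15 (95% confidence interval -0.28 to -0.024), an unadjusted p of 0.0259 and an adjusted p of 0.511 in limma. A second H2AX probe set gave 5.04, 5.18 and 5.28 in CA, against 5.39, 5.30 and 5.41 in DMSO, again with the groups apart and a log2 change of -0.20 (95% confidence interval -0.38 to -0.020). The remaining 2 H2AX probe sets had log2 changes of 0.031 and 0.13 with overlapping groups, so the gene's probe sets did not share a direction.

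H2A.Z, the variant found at promoters, is encoded by H2AZ1 and H2AZ2. H2AZ1 gave 13.87, 13.87 and 13.84 in CA, against 13.91, 13.95 and 13.88 in DMSO at the first probe set and 13.03, 13.02 and 12.96 in CA, against 13.08, 13.04 and 13.04 in DMSO at the second. Both put the CA arrays below the DMSO arrays, but by little: the log2 changes were -0.051 (95% confidence interval -0.18 to 0.074) and -0.050 (95% confidence interval -0.18 to 0.077). H2AZ2 was split. Its brightest probe set gave 12.01, 12.00 and 12.06 in CA, against 11.93, 11.91 and 11.96 in DMSO, every CA array higher, with a log2 change of 0.084 (95% confidence interval -0.042 to 0.21). The next brightest gave 11.20, 11.23 and 11.16 in CA, against 11.28, 11.42 and 11.32 in DMSO, every CA array lower, with a log2 change of -0.14 (95% confidence interval -0.29 to 0.0041). At the other 2 H2AZ2 probe sets the changes were 0.0073 and -0.031.

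H2AJ, a variant close to the canonical H2A, had log2 changes of 0.091, 0.080, 0.041 and -0.0097 at 4 probe sets, all with overlapping groups. H2AP, on chromosome X, had -0.14 (95% confidence interval -0.35 to 0.067), and H2BW2, an H2B variant gene on the same chromosome, -0.19 (95% confidence interval -0.46 to 0.082). MACROH2A1 encodes an H2A with a large globular domain that is found in silent chromatin. Its brightest probe set gave 13.068, 13.09 and 13.10 in CA, against 13.065, 13.06 and 13.06 in DMSO. Every CA array was higher, the lowest only just, with a log2 change of 0.024 (95% confidence interval -0.096 to 0.14). This interval lay within 0.25 either side of 0, as it did for 50 of the 115 members, a share not counted over all probe sets. The other 5 MACROH2A1 probe sets ran from -0.13 to 0.10. The dimmest one gave 2.45, 2.45 and 2.40 in CA, against 2.67, 2.50 and 2.62 in DMSO, with every CA array lower and a log2 change of -0.16 (95% confidence interval -0.31 to -0.0079). MACROH2A2, its paralog, had -0.024 (95% confidence interval -0.18 to 0.13).

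The H3 variant H3.3, laid down at transcribed genes and regulatory regions, is made from H3-3A and H3-3B, and 8 probe sets list both genes. Their log2 changes ran from -0.18 to 0.031, 4 lower and 4 higher in CA. At 3 of them the groups were apart, all 3 lower in CA, where 6.55% of all probe sets were apart and lower. These 3 list the same genes and are not separate observations. Of them, one of the brightest had -0.069 (95% confidence interval -0.20 to 0.061) and a second had -0.077 (95% confidence interval -0.20 to 0.051). The third is described next. The one with the lowest change, which is also the dimmest of the 8, gave 7.75, 7.86 and 7.73 in CA, against 7.92, 8.00 and 7.95 in DMSO. All CA arrays were below all DMSO arrays, with a log2 change of -0.18 (95% confidence interval -0.32 to -0.030) and an unadjusted p of 0.0244. The probe set that lists H3-3A alone went the other way, at 8.02, 8.32 and 8.07 in CA, against 7.96, 8.01 and 7.97 in DMSO. Its CA arrays were higher, the lowest of them only just above the highest DMSO array, with a log2 change of 0.16 (95% confidence interval -0.044 to 0.37), and 0.070 without CA replicate 2; neither passed after adjustment (adjusted p = 0.503 and 0.655 in limma). H3-4, a testis H3, was at 0.031 (95% confidence interval -0.34 to 0.40).

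**Figure D4:**
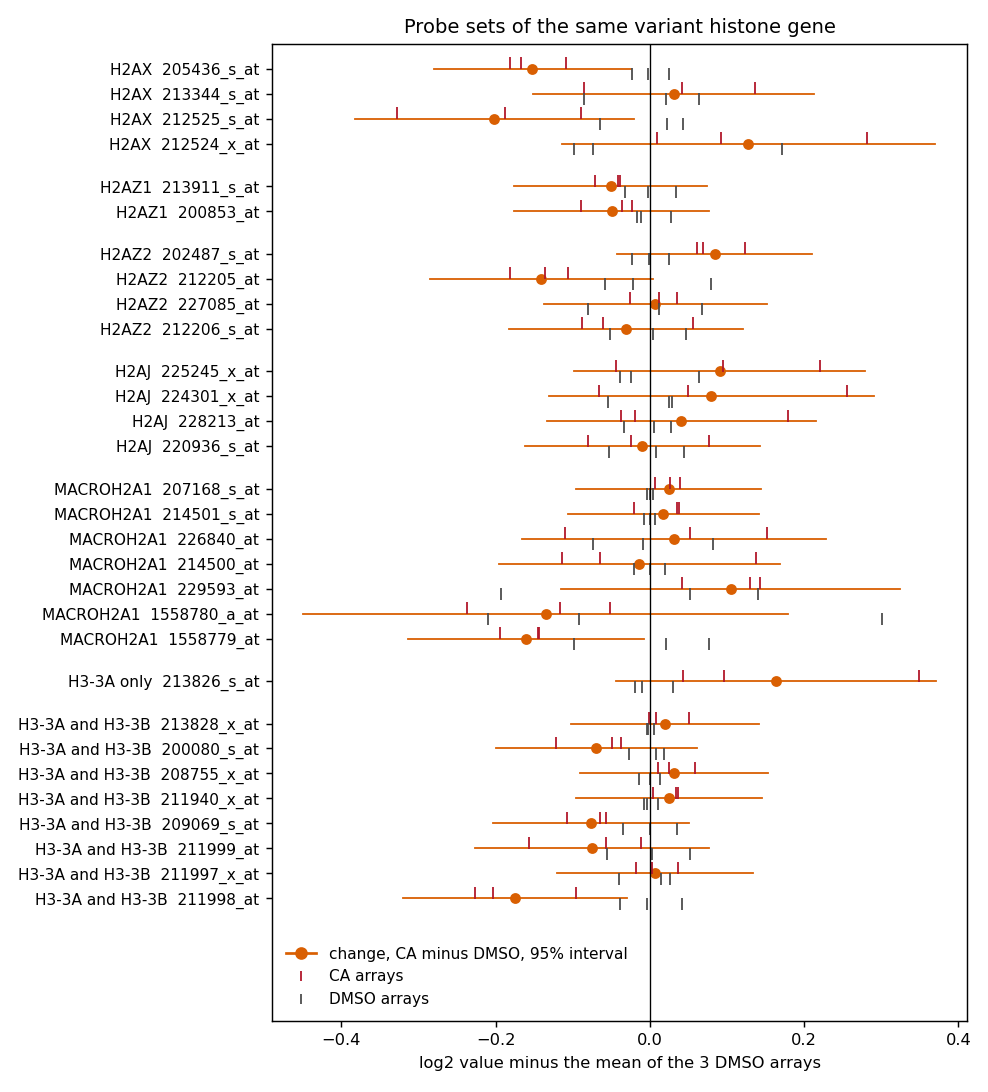
Probe sets of variant histone genes with several of them (rows), as log2 value minus the mean of the 3 DMSO arrays (horizontal axis); points and lines give the change in CA with its 95% confidence interval, and ticks give the CA arrays (upper) and DMSO arrays (lower). H2AZ2 and MACROH2A1 each have 1 probe set with all CA ticks above the DMSO ticks and 1 with all below, and H2AX has 2 below and 2 that overlap.

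Probe sets of 1 gene could differ in sign. Of 13 genes with several 1-symbol probe sets, 9 had both positive and negative log2 changes. Only H2AZ2 and MACROH2A1 among them had groups apart in both directions. The share with both signs was not counted over all genes, so it cannot be read as a trait of histone genes. Its cause was not tested. Near-identical coding sequences make cross-hybridisation between histone genes possible, and 44 of the 115 probe sets have an ID ending in _s_at, _x_at or _a_at, which marks probes shared between transcripts or genes; values of a named gene can therefore include its relatives.

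Replication-dependent H2A members, 15 probe sets, had a median log2 change of -0.052, 12 of them lower in CA and 3 higher. H2AC15, an H2A gene of chromosome 6, had the one histone probe set that was higher at an unadjusted p under 0.05, which gave 3.15, 3.34 and 3.31 in CA, against 2.85, 3.17 and 3.05 in DMSO. CA replicate 1 lay within the DMSO values, and the log2 change was 0.24 (95% confidence interval 0.011 to 0.48), and 0.16 without DMSO replicate 1. Its other probe set had -0.052. H2AC6 had a log2 change of -0.11 (95% confidence interval -0.29 to 0.069), H2AC4 -0.094 (95% confidence interval -0.24 to 0.054) and H2AC25, an H2A gene of the chromosome 1 group, 0.11 (95% confidence interval -0.14 to 0.36) at one probe set and -0.021 at the brighter one.

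H2B members, 20 replication-dependent probe sets, had a median of -0.031, 14 lower and 6 higher. H2BC21, the H2B gene of the chromosome 1 cluster that also gives a polyadenylated mRNA, gave 3.11, 3.27 and 3.24 in CA, against 3.47, 3.37 and 4.01 in DMSO. The groups were apart, but DMSO replicate 3 alone carried much of the gap: the log2 change was -0.41 (95% confidence interval -0.79 to -0.022), and -0.21 without that array. H2BC1, a testis H2B gene, gave 2.32, 2.60 and 2.56 in CA, against 2.80, 2.74 and 2.83 in DMSO. Every CA array was lower, with a log2 change of -0.30 (95% confidence interval -0.50 to -0.098) and an unadjusted p of 0.00983, the smallest after H1-10, at a signal well below the array medians. H2BC13 went the other way, at 0.24 (95% confidence interval -0.11 to 0.59), and H2BC17 was at -0.11 (95% confidence interval -0.26 to 0.040).

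H3 members, 10 replication-dependent probe sets, had a median of 0.030 and no unadjusted p under 0.05. The 4 single-gene probe sets with the smallest p were H3C11 at 0.16 (95% confidence interval -0.072 to 0.39), H3C6 at -0.13 (95% confidence interval -0.45 to 0.18), H3C1 at 0.15 (95% confidence interval -0.23 to 0.52) and H3C3 at -0.049 (95% confidence interval -0.18 to 0.078). A pair of probe sets lists H3 genes together with the H2A gene H2AC7, and both were lower. The one that lists H3C4 and H2AC7 gave 5.67, 5.86 and 5.60 in CA, against 5.96, 5.96 and 5.85 in DMSO, where CA replicate 2 lay just above the lowest DMSO array, with a log2 change of -0.21 (95% confidence interval -0.40 to -0.023). The one that lists 10 H3 genes and H2AC7 had -0.35 (95% confidence interval -0.74 to 0.043).

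H4 members, 15 replication-dependent probe sets, had a median of 0.0079, 6 lower and 9 higher. At an unadjusted limma p under 0.05 there were 3, all lower, where 3.71% of all probe sets were lower and 4.91% higher. H4C8 gave 4.74, 4.67 and 4.37 in CA, against 4.90, 4.85 and 4.78 in DMSO. The groups were apart, with a log2 change of -0.25 (95% confidence interval -0.49 to -0.0091), and -0.14 without CA replicate 3, whereas its other probe set had 0.042. The remaining 2 list the same 14 H4 genes. One gave 5.49, 5.45 and 5.46 in CA, against 5.62, 5.61 and 5.57 in DMSO, a small but separated difference with a log2 change of -0.14 (95% confidence interval -0.26 to -0.011). The other, a dim probe set, had -0.19 (95% confidence interval -0.38 to -0.011). The brightest probe set with the same 14 genes gave 13.72, 13.74 and 13.69 in CA, against 13.69, 13.73 and 13.72 in DMSO. There the groups overlapped with a log2 change of 0.0038 (95% confidence interval -0.12 to 0.13). H4C5 was at 0.059 (95% confidence interval -0.075 to 0.19) and H4C4 at -0.099 (95% confidence interval -0.34 to 0.14).

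Factors that make or handle histone mRNA were set beside the histone genes as 24 measured genes, of which 0 passed in limma, over all probe sets or over genes, with 2 lower and 1 higher in CA at an unadjusted p under 0.05 over genes, where 4.5% of all genes were lower and 7.09% higher. SLBP, which binds the stem-loop and is needed for processing and translation of histone mRNA, gave 11.54, 11.53 and 11.53 in CA, against 11.73, 11.72 and 11.71 in DMSO. The arrays of each group lay close together and the groups were well apart, with a log2 change of -0.19 (95% confidence interval -0.30 to -0.066); its adjusted p was 0.359 over probe sets and 0.135 over genes. CSTF2, a subunit of the cleavage stimulation factor, had 0.16 (95% confidence interval -0.0035 to 0.32). CASP8AP2 (FLASH) and NPAT, which assemble at the histone gene clusters and were picked for that role after their values were seen, had -0.18 (95% confidence interval -0.36 to 0.0041) and -0.075 (95% confidence interval -0.24 to 0.092).

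Histone chaperones and deposition factors, 35 measured genes, also gave 0 calls in limma on either count, with 1 lower and 2 higher at an unadjusted p under 0.05 over genes, against the same 4.5% and 7.09% of all genes. Their median log2 change was 0.012. DNAJC9, a chaperone that binds H3 and H4, was at -0.11 (95% confidence interval -0.23 to 0.013), and VPS72, the subunit that carries H2A.Z in its exchange complexes, at 0.12 (95% confidence interval -0.012 to 0.24). The median of the mRNA factors was -0.0056 and that of all 19775 genes 0.0037.

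S phase genes, set beside the histone genes because replication-dependent histone mRNA is made in that phase, were counted next. Of 33 measured genes of S phase and DNA replication, 25 had a negative log2 change, as did 48.3% of all genes, and the median was -0.042. With 1 probe set per gene, 2 passed in limma, both lower, where 0.0556% of all genes passed lower, and over all probe sets 0 of theirs did. At an unadjusted p under 0.05 over genes it was 7 lower and 0 higher, against 4.5% lower and 7.09% higher of all genes. CCNE2, cyclin E2, gave 10.09, 10.19 and 9.96 in CA, against 10.58, 10.64 and 10.56 in DMSO, a log2 change of -0.51 (95% confidence interval -0.69 to -0.34) with adjusted p = 0.0307 over genes and 0.0687 over probe sets in limma. RRM2, a subunit of ribonucleotide reductase, gave 11.66, 11.71 and 11.64 in CA, against 11.98, 12.08 and 12.06 in DMSO, a log2 change of -0.37 (95% confidence interval -0.51 to -0.24) with adjusted p = 0.0307 over genes and 0.0830 over probe sets in limma. In both the CA arrays lay below the DMSO arrays, as they did for H1-10 and SLBP, which are not in this list, and for 6.55% of all probe sets. The replication-dependent histone probe sets had a median of -0.023 on the same arrays, also with 1 probe set per gene, the unit used for the S phase median. The part of cell cycle position in any of these differences was not tested.

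**Figure D5:**
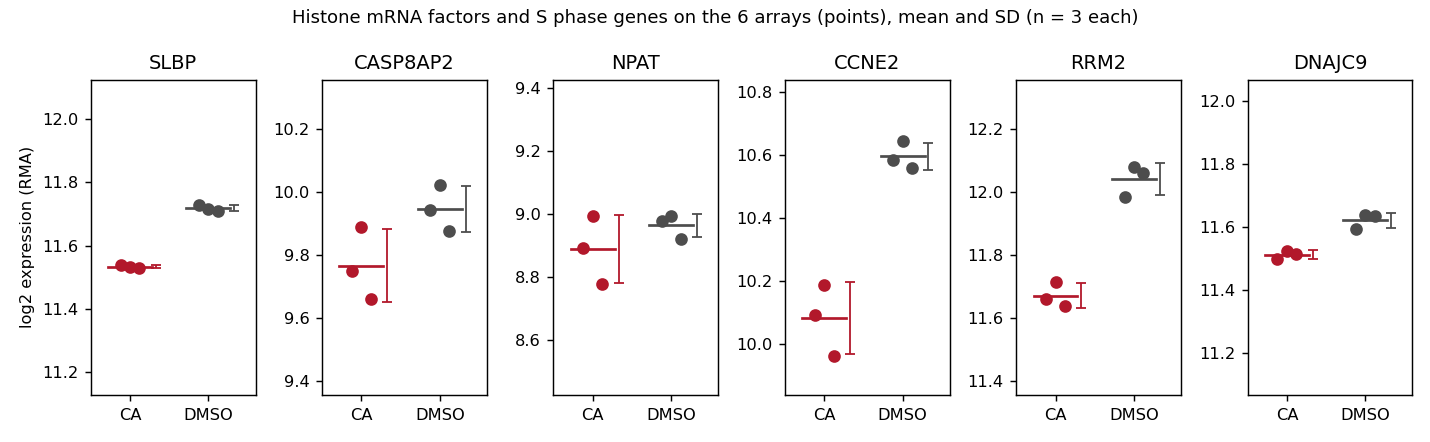
Log2 expression (vertical axis, the same span in each panel) of SLBP, CASP8AP2, NPAT, CCNE2, RRM2 and DNAJC9 on the 3 CA and 3 DMSO arrays (points), with group means (horizontal lines) and SDs (bars). The CA points lie below the DMSO points for SLBP (11.53 to 11.54, against 11.71 to 11.73), CCNE2, RRM2 and DNAJC9, and overlap them for CASP8AP2 and NPAT.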

How the data were processed

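Per the labels, Affymetrix U133 Plus 2.0 arrays were hybridised with MOLM-14 RNA from 3 CA and 3 DMSO samples, and titles gave the groups. The authors deposited log2 expression per probe set; the submitters' processing notes name RMA and affy. RMA quantile normalises the arrays, so a shift shared by all genes would be lost. The sources used here give no software versions, probe annotation, scan batches or genome build. The labels name 2 reagents for RNA isolation without tying them to samples.

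From these values 62 control probe sets were left out and 54613 were tested, with no further scaling or filter, CA minus DMSO, by a two-sided limma test (version 3.58.1, R 4.3.3) with lmFit and eBayes and without a block. P-values were adjusted by Benjamini-Hochberg over all 54613, and a call is an adjusted p under 0.05. A fit over 19775 genes took the probe set with the highest mean for each gene. An exact permutation test of 3 against 3 cannot give a p below 0.1. The code was tested on simulated data.

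Histone probe sets, their classes and the gene lists were chosen with earlier results of these data known. Named are histone probe sets with 1 symbol that were called, that belong to linker or variant genes, that are among the 4 smallest p in a replication-dependent class, or that had an unadjusted p under 0.05, and in each gene list the called genes or else the 2 with the smallest p. H1-10-AS1, CASP8AP2, NPAT and the markers CEBPA, SPI1, HBB and MS4A1 are named outside this rule. Probe sets with several genes are given by class. Promoter windows and chromosomes came from RefSeq tables of GRCh38.p14, matched by the gene ID in the platform's probe table. Alternatives covered the unit of the fit, variance model, array weights, replicate block, centring, dim and shared probe sets, the threshold and each array left out.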

Additional observations from a re-analysis of the deposited data

How the results depend on the processing

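Over 14 alternatives, H1-10 kept its direction in each one that could include it, and it was the 1 of 54 named histone probe sets past the threshold in any. The count of histone probe sets called lower was 1, namely H1-10, with 1 probe set per gene (log2 change -0.5045, adjusted p = 0.0307), with an intensity trend and robust fit (-0.5045, 0.00247), with array weights (-0.4808, 0.0449) and without dim probe sets (-0.5045, 0.0190). It was 0 in the others, and none was called higher in any. For H1-10 the limma adjusted p was 0.0994 after centring and 0.128 to 0.345 without 1 array, where its change ran from -0.5408 to -0.45. A probe set ID ending in _s_at keeps H1-10 out of the fit without shared probe sets. The labels state no pairing, so the numbers were not taken to pair the samples. Deviations of same-numbered arrays correlated at 0.0805, 0.192 and 0.260, and each DMSO array deviated most like the CA array of its own number. With the replicate block 1 probe set was called in all, 0 histone ones, and H1-10 had a limma adjusted p of 0.142. Over all probe sets the calls were 740 with trend and robust fit, 196 with weights, 398 without dim probe sets, 47 without shared ones, 5 at an adjusted p under 0.01, and 0 to 6 without 1 array, each such fit having fewer samples. The median of replication-dependent probe sets ran from -0.03555 to -0.002034 without 1 array. That of variant probe sets was -0.02449 with 1 probe set per gene, -0.01935 with weights, -0.0134 without shared probe sets, and -0.03499 to 0.0154 without 1 array. Sign changes, the cause of which was not tested, were the dimmest H1-7 probe set at -0.01991, H3-4 at -0.0723 and the fourth brightest MACROH2A1 probe set at 0.01766 with weights, and the dimmest H2AJ probe set at 0.005249 and that MACROH2A1 probe set at 0.001516 after centring. Without 1 array, 17 named probe sets changed sign, none of them called: H1-1 -0.08541 to 0.1062, H1-3 -0.1815 to 0.04546, H1-5 -0.05923 to 0.1932, H1-7 -0.04612 to 0.1955 and -0.1062 to 0.1828, H1-8 -0.03971 to 0.03325, H2AJ -0.008092 to 0.1524, -0.02815 to 0.08021 and -0.05255 to 0.02587, H2AX -0.02151 to 0.08898, H2AZ2 -0.03269 to 0.04108, H3-4 -0.1583 to 0.1585, H4C4 -0.1726 to 0.01127, MACROH2A1 -0.02893 to 0.1016, -0.089 to 0.03667 and -0.2396 to 0.01607, and MACROH2A2 -0.05441 to 0.02012. Signal limits the rest: 67 of the 115 histone probe sets had a mean above the median probe set, and differences of dim ones can be compressed.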
